A study of Mus musculus with 18 samples.

Results

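The 10 genes described here encode the subunits of the transcription factor NF-κB (Nfkb1, Nfkb2, Rela, Relb and Rel) and a group listed as its inhibitors (Nfkbia, Nfkbib, Nfkbie, Nfkbiz and Tnfaip3). They were chosen by symbol from the 27179 genes of a table of RNA-seq values of mouse bone marrow mesenchymal stem cells (MSCs), adherent cells of the marrow stroma that can be expanded in culture. All 10 had a mean of at least 10 normalized counts, the limit for testing, as had 14353 genes in the table. A normalized count is a gene's read count divided by a size factor of its library. The 18 libraries came from cultures of cells from male C57BL6 mice, and the labels name no other allele. Young MSCs were from mice of 6 weeks and old MSCs from mice of 18 to 24 months, with 6 libraries each. Rejuvenated old MSCs, also with 6 libraries, were old MSCs kept for 7 days in the same well as young MSCs, with a membrane of 0.4 µm pores between them. No library of old MSCs cultured beside other old MSCs was analysed here, so the presence of a second cell layer and its young age cannot be told apart. The labels call the 6 libraries of a group biological replicates without saying that they came from separate animals or cultures, so p-values measure only the spread between these libraries, which may be technical.

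NF-κB subunits pair into dimers that inhibitors of the IκB family hold in the cytoplasm. Signals from receptors for TNF, interleukin 1 or microbial products activate the IκB kinase (IKK) complex, the IκB proteins are degraded and the dimers enter the nucleus, where they raise the transcription of cytokines, adhesion molecules and survival factors, and also of their own inhibitors, which ends the response. A slower, non-canonical route runs through the kinase encoded by Map3k14, which leads to the processing of the Nfkb2 product, the usual partner of RelB. In marrow stromal cells NF-κB is known for driving the secretion of inflammatory factors and for restraining bone formation. The values below are mRNA levels, and protein, its processing and its place in the cell were not measured.

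Several of these genes hold, in the DNA in front of them, matches to the κB consensus, the site that NF-κB dimers recognise. Promoters in RefSeq (GRCm38.p6, 250 bases before to 50 after a start site) were matched by symbol for 7 of the 10 members, Nfkb2, Rela, Rel, Nfkbia, Nfkbib, Nfkbie and Tnfaip3, and were not matched for Nfkb1, Relb and Nfkbiz. This consensus, searched on both strands, was found in at least 1 promoter of 5 of these 7 genes, against 9.55% of the 27025 genes in the collection and 8.46% of its 32851 promoters. Rela and Nfkbib had no match in this window. The 150 bases before the start are printed for the 5 genes with a match. Letters in capitals are matches, with overlapping matches joined.
Nfkbia, chr12:55492648-55492797, minus strand: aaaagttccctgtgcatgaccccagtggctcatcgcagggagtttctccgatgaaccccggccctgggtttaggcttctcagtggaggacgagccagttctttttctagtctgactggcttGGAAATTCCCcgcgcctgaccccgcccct
Nfkbie, chr17:45555550-45555699, plus strand: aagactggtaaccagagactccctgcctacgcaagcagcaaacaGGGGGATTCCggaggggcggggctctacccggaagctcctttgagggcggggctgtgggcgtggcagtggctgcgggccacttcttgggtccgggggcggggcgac
Tnfaip3, chr10:19015411-19015560, minus strand: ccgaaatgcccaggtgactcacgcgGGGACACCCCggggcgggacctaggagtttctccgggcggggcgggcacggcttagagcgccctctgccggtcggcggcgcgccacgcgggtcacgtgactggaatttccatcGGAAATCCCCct
Nfkb2, chr19:46304587-46304736, plus strand: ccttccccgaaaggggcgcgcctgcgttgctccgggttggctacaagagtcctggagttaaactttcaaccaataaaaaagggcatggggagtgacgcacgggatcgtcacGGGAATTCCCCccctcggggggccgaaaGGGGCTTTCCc
Rel, chr11:23770970-23771119, minus strand: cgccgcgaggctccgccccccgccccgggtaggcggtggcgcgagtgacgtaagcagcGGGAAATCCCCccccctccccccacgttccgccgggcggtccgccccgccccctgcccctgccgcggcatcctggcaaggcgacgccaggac
The match of Nfkbia began 29 bases before its start site and that of Nfkbie 106 bases before. Tnfaip3 had matches that began 125 and 12 bases before the upstream of its RefSeq starts, and none at the other. Nfkb2 had them 39 and 11 bases before its first start, and also in the promoters of its other 2 starts. For Rel the joined match began 92 bases before the start. A match describes the letters only, and binding of NF-κB was not measured.

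The libraries held 22936251 to 25648769 reads in young, 24965971 to 29559194 in old and 26018046 to 29155223 in rejuvenated old MSCs. Of 11 stromal markers 5 were called higher and 6 lower in young than in old MSCs. All had more than 3 reads in some library of every group except Thy1. Thy1 had 175.2 to 227 normalized counts in young and 0 to 3.232 in old MSCs. Eng, another of these markers, went the other way, with 147.5 to 175.1 in young and 7008 to 7681 in old MSCs. In rejuvenated old MSCs Thy1 stood at 21.62 in replicate 1 and at 0 to 0.9514 in the others. The 17 macrophage markers summed to 1092 to 1187 normalized counts in young libraries, with 8 of them at no more than 3 reads and Ptprc and Adgre1 at 0. They summed to 18350 to 22790 in old and 18340 to 22090 in rejuvenated old libraries, all 17 being called lower in young than in old MSCs, and 1 higher and 1 lower after co-culture. The part of these markers' cells in the differences of members and pathway genes between young and old MSCs was not tested. In bulk RNA, fewer cells of a type and less RNA per cell cannot be told apart. Rejuvenated old replicate 1 stood apart in Cd34, at 401.6 normalized counts, where the rest of its group had 24.21 to 41.86. Old MSCs had 19.36 to 28.01 and young MSCs 6787 to 7191. Thy1 and the ligand genes Il33 and Lta, which like Cd34 were higher in young than in old MSCs, were also highest in this replicate of its group. The cause was not tested. Without rejuvenated old replicate 1, 5 members were again called higher and 0 lower in co-cultured against old MSCs (limma).

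Levels of different genes are compared per kilobase of the longest coding transcript in GENCODE M21. In old MSCs the order was Rela at 1254 ± 50.1 (SD, n = 6) normalized counts per kilobase, Nfkbia at 816 ± 44.8, Nfkb2 at 484 ± 19.6, Nfkb1 at 479 ± 30.1, Relb at 203 ± 17.8, Tnfaip3 at 199 ± 16, Nfkbib at 195 ± 16.9, Nfkbie at 134 ± 9.93, Nfkbiz at 117 ± 7.41 and Rel at 3.28 ± 0.714. The ranges over libraries overlapped between Nfkb2 and Nfkb1, among Relb, Tnfaip3 and Nfkbib, and between Nfkbie and Nfkbiz. Differences between these neighbours within a library were not tested. Rela and Nfkbia stood first and second in all 3 groups and Rel was last. Young MSCs differed in the middle of the order. Nfkb2 stood at 623 ± 17 per kilobase, with no overlap with Nfkb1 at 328 ± 24.5, and Tnfaip3, at 133 ± 4.53, was lowest but for Rel and overlapped Nfkbiz at 144 ± 9.21. In rejuvenated old MSCs Tnfaip3 had moved up to 264 ± 26.2 per kilobase and no longer overlapped Relb at 208 ± 15.5.

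The make-up of the subunit pool followed from these levels. Rela, the main activating subunit in most cells, made up a mean of 50%, 51.7% and 49.2% of the summed subunit mRNA per kilobase in young, old and rejuvenated old MSCs. Nfkb1 took 12.9% ± 1.02 (SD, n = 6) of the pool in young MSCs, 19.8% ± 1.17 in old and 21.4% ± 1.03 in rejuvenated old ones, the young libraries lying at 11.9% to 14.3% and all others at 18.2% or more. Nfkb2 and Relb, the pair of the non-canonical route, took 24.6% and 12.3% in young against 20% and 8.37% in old MSCs. Rel, known mainly from lymphocytes, stayed at a mean of 0.194% or less. The ratio of Nfkb2 to Nfkb1 per kilobase was 1.91 ± 0.145 in young MSCs, 1.01 ± 0.0758 in old and 0.983 ± 0.0608 in co-cultured ones, and the young range (1.71 to 2.07) did not reach the old (0.911 to 1.1).

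**Figure D1:**
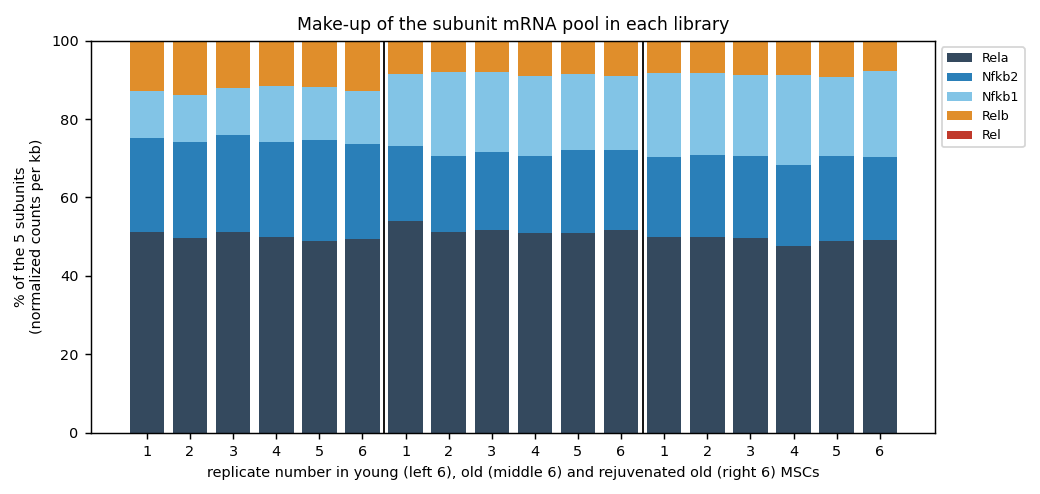
Stacked bars give, for each library, the percentage of the summed subunit mRNA (normalized counts per kilobase) that came from each of the 5 NF-κB subunit genes, with young, old and rejuvenated old libraries from left to right. Rela takes about the same part in every bar, with a group mean of 49.2% to 51.7%, while the Nfkb1 segment is narrower and the Relb segment wider in the 6 young libraries.

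Between rejuvenated old and old MSCs, 5 of the 10 members were higher in the co-cultured cells, namely Tnfaip3, Nfkbie, Nfkbia, Nfkb1 and Nfkb2, and 0 were lower. The comparison asks what changed in old cells that had shared medium with young ones. Calls are an adjusted p under 0.05 with limma on log2(normalized count + 1), adjusted by the Benjamini-Hochberg method over all 14353 genes, of which 41.6% were called, 21.0% as higher and 20.6% as lower. At an unadjusted p under 0.05 there were also 0 members lower, as there were with edgeR and with DESeq2, which both called 5 higher. The median log2 fold change was 0.11 over the members and 0.01 over all genes tested. The libraries of both groups did not overlap for 2 members, Nfkbie and Tnfaip3, and for 22.0% of all genes. The other 5 members, Rela, Relb, Rel, Nfkbib and Nfkbiz, were not called.

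Tnfaip3, a ubiquitin-editing enzyme that shuts off signalling from TNF and Toll-like receptors, had the largest difference of the members in this comparison. Its normalized count ran from 824.8 to 973.8 (median 842.8) in old, from 1050 to 1351 (median 1146) in rejuvenated old and from 568.8 to 622.4 (median 584.4) in young MSCs. No library of one group reached into the range of another. The mean was 1168 ± 116 (SD, n = 6) in rejuvenated old against 881 ± 70.6 in old MSCs, a log2 fold change of 0.40 ± 0.06 (SE, adjusted p = 8.45e-06). Young MSCs lay on the other side of old MSCs, at 588.6 ± 20 with a log2 fold change of -0.58 ± 0.06 (adjusted p = 3.69e-09). Rejuvenated old MSCs were thus 1.98-fold above young MSCs.

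Nfkbie encodes IκBε, which holds Rela and Rel dimers in the cytoplasm. Old libraries held 288.5 to 353.8 (median 325), rejuvenated old libraries 370.7 to 475.9 (median 413.6) and young libraries 466.9 to 534.9 (median 480.8) normalized counts. Every co-cultured library was above the old range, and the co-cultured and young ranges overlapped at their edges. The log2 fold change of rejuvenated old over old MSCs was 0.37 ± 0.06 (SE, n = 6 each, adjusted p = 6.21e-05), and that of young over old MSCs was 0.60 ± 0.06 (adjusted p = 6.46e-09). Here the co-cultured cells lay between old and young MSCs, with a log2 fold change of -0.23 ± 0.06 against young MSCs (adjusted p = 0.00172).

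Nfkbia encodes IκBα, the most studied IκB protein and a quickly induced target of NF-κB. It had 1192 to 1395 (median 1287) normalized counts in old, 1342 to 1530 (median 1471) in rejuvenated old and 1205 to 1342 (median 1271) in young MSCs. Young and old libraries covered nearly the same range, and the rejuvenated old libraries reached above both. The mean of rejuvenated old MSCs, 1460 ± 77.8 (SD, n = 6), was higher than that of old MSCs (1288 ± 70.7) by 0.18 ± 0.04 on the log2 scale (adjusted p = 0.00128) and higher than that of young MSCs (1275 ± 46) by 0.19 ± 0.04 (adjusted p = 0.000163). Between young and old MSCs the log2 fold change was -0.01, with a 95% confidence interval of -0.10 to 0.07 (adjusted p = 0.752). Per kilobase, the ratio of Nfkbia to Rela was 0.759 ± 0.042 in rejuvenated old, 0.652 ± 0.0415 in old and 0.636 ± 0.03 in young MSCs.

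The remaining inhibitors were not called between rejuvenated old and old MSCs. For Nfkbib, which encodes IκBβ, old libraries had 340.6 to 434.4 (median 406.9) and rejuvenated old libraries 374.7 to 464.7 (median 425.7) normalized counts, with a log2 fold change of 0.09 (95% confidence interval -0.05 to 0.22, adjusted p = 0.307). Nfkbiz encodes a nuclear IκB-like protein that helps to turn on a subset of NF-κB targets such as Lcn2. Its old libraries had 432 to 521.8 (median 480.2) and its rejuvenated old libraries 450 to 589.6 (median 532.5) normalized counts. The log2 fold change was 0.12 (95% confidence interval -0.01 to 0.24, adjusted p = 0.118). It was called when rejuvenated old replicate 3 was left out (0.16, adjusted p = 0.026). Summed over the IκB genes Nfkbia, Nfkbib, Nfkbie and Nfkbiz, mRNA per kilobase was 0.521 ± 0.0204 (SD, n = 6) of the subunit sum in old, 0.578 ± 0.0231 in rejuvenated old and 0.575 ± 0.0225 in young MSCs. The ranges of old (0.5 to 0.557) and rejuvenated old MSCs (0.547 to 0.612) overlapped. The sum joins Nfkbia, higher in rejuvenated old than in young MSCs, with Nfkbib, Nfkbie and Nfkbiz, which were lower. It includes Nfkbiz although its product helps to turn on some targets, so it is not a sum of inhibitors alone.

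Among the subunits, Nfkb1 and Nfkb2 were called higher in rejuvenated old than in old MSCs, by small margins. Both encode precursors that are trimmed to DNA-binding subunits without an activation domain of their own. Nfkb1 had 1822 to 2127 (median 1968) normalized counts in old and 2061 to 2410 (median 2162) in rejuvenated old MSCs, so the groups overlapped. The log2 fold change was 0.15 ± 0.05 (SE, n = 6 each, adjusted p = 0.0232), and it was not called without old replicate 1 (0.12, adjusted p = 0.0624), old replicate 5 (0.13, adjusted p = 0.057) or rejuvenated old replicate 4 (0.12, adjusted p = 0.0686). Nfkb2 ran from 1775 to 1963 (median 1860) in old and from 1959 to 2069 (median 1983) in rejuvenated old MSCs, and the groups met only at the edge. Its log2 fold change was 0.10 ± 0.03 (adjusted p = 0.00944), with adjusted p-values of 0.00413 to 0.0312 over the alternatives.

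Rela, Relb and Rel, the subunits that carry an activation domain, were not called between rejuvenated old and old MSCs. Rela was the steadiest member, with 3214 to 3553 (median 3421) normalized counts in old, 3239 to 3377 (median 3310) in rejuvenated old and 3357 to 3609 (median 3438) in young MSCs. The log2 fold change of rejuvenated old over old MSCs was -0.04, with a 95% confidence interval of -0.10 to 0.02 (adjusted p = 0.275). For Relb the old libraries ran from 405.7 to 500.8 (median 438.6) and the rejuvenated old libraries from 410.4 to 501 (median 458.7), nearly the same range, with a log2 fold change of 0.03 (95% confidence interval -0.10 to 0.17, adjusted p = 0.729). Rel was covered by only 9 to 42 reads per library over the 3 groups. Its log2 fold change of -0.25 had a 95% confidence interval of -0.76 to 0.25 (adjusted p = 0.434), so a change of the size seen in Tnfaip3 was not detectable for Rel at this depth.

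**Figure D2:**
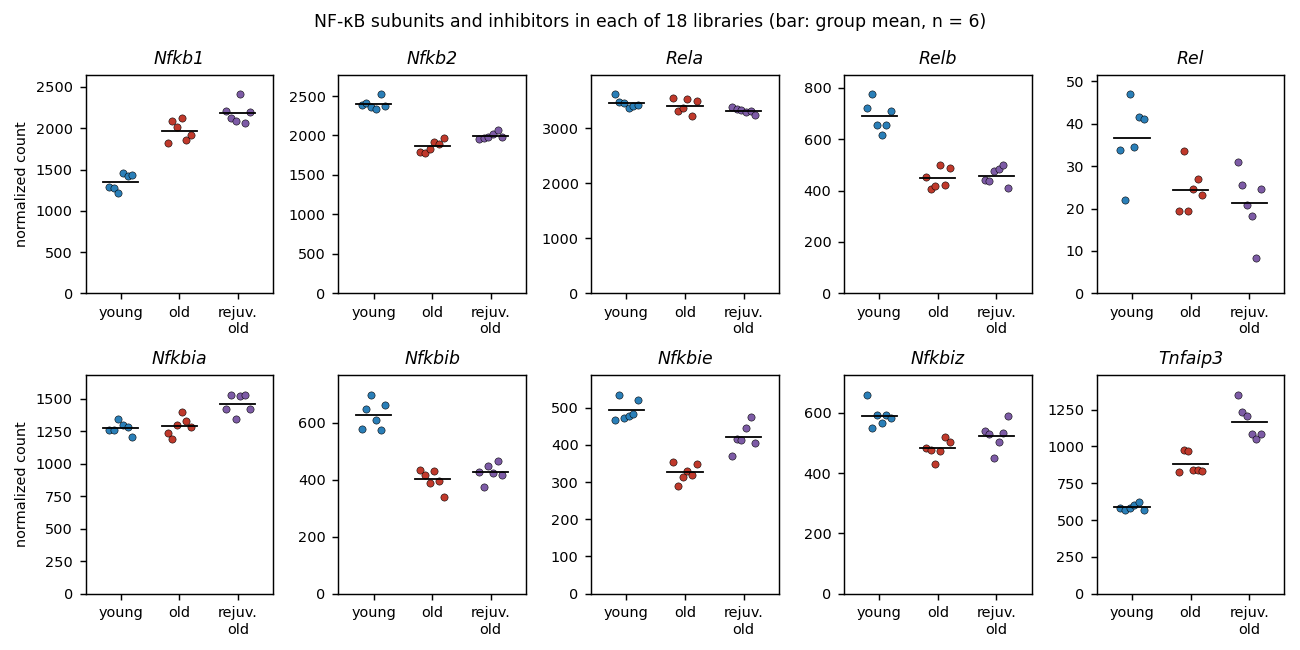
Each point is the normalized count of 1 library (axes start at 0) for young, old and rejuvenated old MSCs, and the horizontal bar is the group mean of 6 libraries. Tnfaip3 and Nfkbie in rejuvenated old MSCs lie above all old libraries, while Rela changes little between groups.

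Young and old MSCs, compared to find what differs with donor age, differed in 8 of the 10 members. Higher in young MSCs were Nfkb2, Relb, Rel, Nfkbib, Nfkbie and Nfkbiz, and lower were Nfkb1 and Tnfaip3, while Rela and Nfkbia were not called. Of all genes tested 85.7% were called in this comparison, 41.6% as higher and 44.1% as lower, so the members' 6 higher and 2 lower stand against a high background. The libraries did not overlap for 7 members and for 73.9% of all genes. The median log2 fold change was 0.33 over the members and -0.02 over all genes tested. This comparison and that of rejuvenated old with old MSCs share the old libraries, so their values for a member are set side by side without a test of likeness.

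Of the subunits, Relb, Nfkb2 and Rel were called higher and Nfkb1 lower in young MSCs. Young libraries had 617.5 to 774 (median 682.5) normalized counts of Relb, all above the highest old library at 500.8, with a log2 fold change of 0.62 ± 0.07 (SE, adjusted p = 7.64e-09), which was 0.02 (adjusted p = 0.811) after each chromosome was centred on its median. Nfkb2 had 2334 to 2520 (median 2380) in young MSCs, also without overlap, and a log2 fold change of 0.36 ± 0.03 (adjusted p = 1.1e-10). Other genes of the non-canonical route differed in both directions. The kinase gene Map3k14 was higher in young MSCs, at a mean of 1152 against 523.4 normalized counts in old MSCs (log2 fold change 1.14 ± 0.06, adjusted p = 5.19e-15), while Chuk, the kinase it activates, and the receptor gene Ltbr were lower, at -0.98 ± 0.04 and -0.40 ± 0.03 (adjusted p = 1.79e-17 and 2.59e-11). Nfkb1 went the other way. Its young libraries, at 1221 to 1459 (median 1355), all lay below the old ones, with a log2 fold change of -0.55 ± 0.05 (adjusted p = 7.13e-10). Rel had 21.91 to 46.93 (median 37.8) in young and 19.36 to 33.48 (median 23.81) in old MSCs, and the groups overlapped. Its log2 fold change of 0.55 ± 0.24 (adjusted p = 0.0415) was not called without any one of young replicates 1, 3, 4, 5 or 6 or of old replicates 1, 3, 4 or 6, with values of 0.47 to 0.56 and adjusted p-values of 0.0513 to 0.0926.

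Of the inhibitors, Nfkbib had 575.5 to 698.4 (median 628.4) normalized counts in young MSCs, all above the old libraries, and a log2 fold change of 0.65 ± 0.07 (SE, n = 6 each, adjusted p = 3.87e-09). Nfkbiz had 550.8 to 660.6 (median 587) in young MSCs, again without overlap with old MSCs, and a log2 fold change of 0.29 ± 0.06 (adjusted p = 0.000108). Rela stayed level, with a log2 fold change of 0.02 and a 95% confidence interval of -0.04 to 0.08 (adjusted p = 0.535). It was called at 0.09 (adjusted p = 0.00455) after scaling to the same total, at 0.06 (adjusted p = 0.0378) after quantile normalization and at 0.07 (adjusted p = 0.0215) after each chromosome was centred on its median. A strand setting for the counting is not given in the sources used here. On the opposite strand, Ccer2 shares 314 and Sirt2 42 exonic bases with Nfkbib, and AC114539.1 shares 531 and Psd 299 with Nfkb2, so the counts of these members may hold reads of both.

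**Figure D3:**
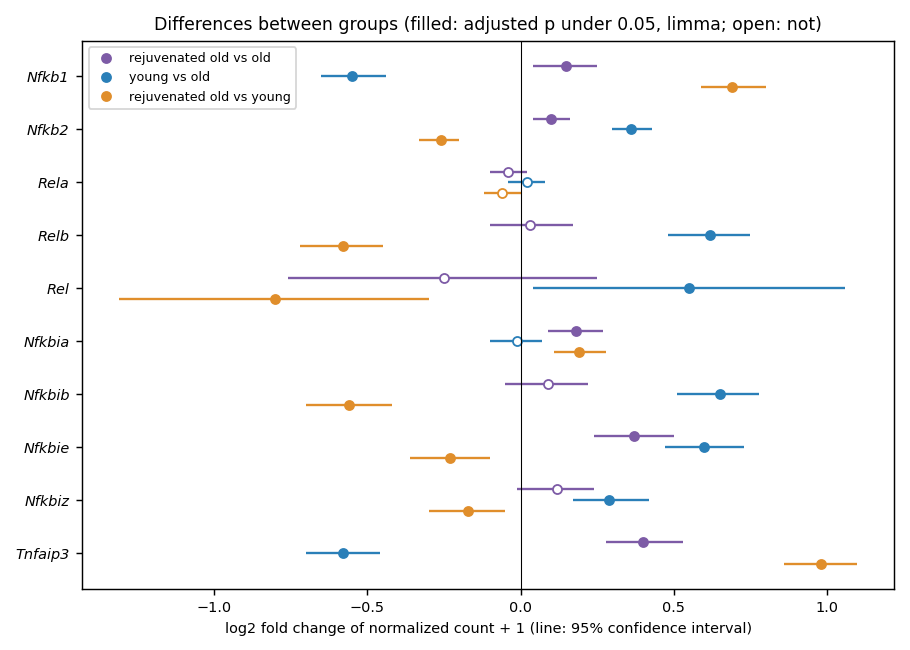
Points are log2 fold changes of normalized count + 1 for each member in rejuvenated old vs old, young vs old and rejuvenated old vs young MSCs (6 libraries a group), and lines are 95% confidence intervals. Filled points had an adjusted p under 0.05 with limma. Nfkbie lies to the right of 0 in both comparisons with old MSCs, and Tnfaip3 lies at 0.40 and -0.58.

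For several members the difference between young and old MSCs went with the chromosome on which they lie. Young libraries differed from old ones by whole chromosomes, with a median log2 fold change of -0.69 on chromosome 1, 0.61 on chromosome 7, -0.46 on chromosome 12 and -0.75 on chromosome 16, where the other chromosomes lay between -0.30 and 0.22. Relb (chr7:19606217-19629438) and Nfkbib (chr7:28758251-28766644) lay on chromosome 7, at the percentiles 50.6 and 53.4 of its genes. After each chromosome was centred on its median, their log2 fold changes were 0.02 (adjusted p = 0.811) and 0.05 (adjusted p = 0.507), and neither was called. Nfkbia (chr12:55489409-55492647) was not called in the uncentred values. It stood above the median of chromosome 12, at percentile 75.4 of its genes and at 0.46 ± 0.04 (adjusted p = 1.48e-09) on the centred scale. Nfkbiz (chr16:55811375-55838954) had the largest value of the members on that scale, 1.04 ± 0.06 (adjusted p = 2.13e-13). Nfkb1, Nfkb2, Rel, Nfkbie and Tnfaip3 kept their direction and call, at -0.57, 0.42, 0.55, 0.35 and -0.38. Their percentiles on their chromosomes were 23.5, 71.9, 79.2, 69.1 and 32.4. On the centred scale 11810 of 14004 genes tested were called in young vs old MSCs, so a kept call sets no member apart. In rejuvenated old against old MSCs the chromosome medians lay between -0.04 and 0.06, and centring changed no member's call. The cause of the chromosome differences was not tested.

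**Figure D4:**
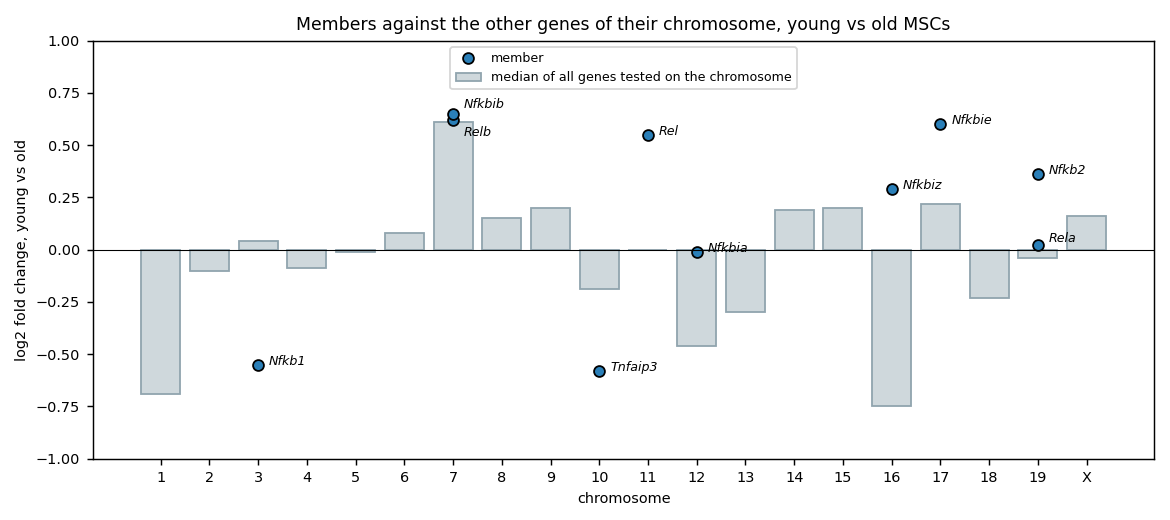
Bars give the median log2 fold change of all genes tested on each chromosome in young vs old MSCs, and points the members at their chromosome. Relb and Nfkbib sit at the top of the chromosome 7 bar (0.61), while Nfkbiz sits at 0.29 over a bar of -0.75 and Nfkbia at -0.01 over a bar of -0.46.

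Rejuvenated old MSCs still differed from young MSCs in 9 of the 10 members, with Nfkb1, Nfkbia and Tnfaip3 higher and Nfkb2, Relb, Rel, Nfkbib, Nfkbie and Nfkbiz lower. In this comparison 85.6% of all genes were called, 44.1% as higher and 41.5% as lower, and libraries did not overlap for 5 members and 70.5% of all genes. The median log2 fold change was -0.20 over the members and 0.03 over all genes. For Nfkb1 and Tnfaip3 the co-cultured cells were farther from young MSCs than old MSCs were, at log2 fold changes of 0.69 ± 0.05 and 0.98 ± 0.06 against young MSCs (adjusted p = 1.06e-11 and 2.68e-13). Nfkb2 was closer, at -0.26 ± 0.03 (adjusted p = 3.14e-08). Relb and Nfkbib differed by -0.58 ± 0.07 and -0.56 ± 0.07 (adjusted p = 1.94e-08 and 4.48e-08), and by -0.04 and -0.01 after centring (adjusted p = 0.564 and 0.843). Rel differed by -0.80 ± 0.24 (adjusted p = 0.00438) and Nfkbiz by -0.17 ± 0.06 (adjusted p = 0.011). Nfkbie was not called on the centred scale (-0.04, adjusted p = 0.595), and Nfkbia turned from 0.19 to -0.28 (adjusted p = 4.27e-06). Rela just missed the threshold at -0.06 (95% confidence interval -0.12 to -0.00, adjusted p = 0.0569). It was called with edgeR (-0.07, adjusted p = 0.0418) and DESeq2 (-0.07, adjusted p = 0.0114), and without young replicate 4 (-0.07, adjusted p = 0.0447). It was also called at -0.15 (adjusted p = 4.88e-05) after scaling to the same total, at -0.09 after scaling to the same 75th percentile or quantile normalization (adjusted p = 0.00421 and 0.00374), and at -0.12 (adjusted p = 0.000248) after centring.

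The genes most like each member were found as those with the smallest root mean square difference in centred log2 values over the 18 libraries, among the 14353 genes tested. Nfkbie was nearest to Commd1 (0.08), itself a factor that ends NF-κB signalling. Its mean was 1650 normalized counts in rejuvenated old, 1315 in old and 2032 in young MSCs. Tnfaip3 was nearest to Cited2 (0.10), Nfkb1 to Dusp7 (0.07), Nfkbia to Tmem98 (0.05), Relb to Cdk2ap2 (0.07), Nfkbib to Oxsr1 (0.09), Nfkbiz to Stx16 (0.07), Nfkb2 to Hnrnpl (0.04) and Rela to Fxr2 (0.04). For Rel, with few reads, even the nearest gene, Nup98, was 0.28 away. Among the members themselves the nearest pairs were Nfkb2 with Nfkbiz (0.10), Rela with Nfkbia (0.13), Relb with Nfkbib (0.14), Nfkbie with Nfkb2 (0.15) and Nfkb1 with Tnfaip3 (0.17). Rela varied around its own mean by a root mean square of only 0.04 and Nfkbia by 0.11. The value of Rela with Nfkbia was larger than both spreads and shows no shared pattern. That of Rela with Fxr2 equalled the spread of Rela as rounded, so its low value alone does not show a shared pattern. All these values reflect the same 3 groups and are a description.

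Upstream of the members, the pathway was followed in lists of ligands, receptors, adaptors with upstream kinases, and IκB kinases. Between rejuvenated old and old MSCs 3 of 7 tested ligands were called, each as higher, 2 of 15 receptors were higher and 4 lower, 7 of 25 adaptors and kinases were higher and 4 lower, and 2 of 5 IκB kinase genes were called, both as lower. Of these lists 42.9%, 40%, 44% and 40% were called, near the 41.6% of all genes tested (21.0% as higher and 20.6% as lower). The median log2 fold changes were 0.15, -0.05, 0.01 and -0.11, against 0.01 for all genes. Tnfsf11, which encodes the osteoclast factor RANKL, rose from a mean of 66.08 to 182.4 normalized counts (log2 fold change 1.44 ± 0.19, adjusted p = 2.66e-06). The call of Il33, another of the 3 ligands (0.34 ± 0.14, adjusted p = 0.048), was lost without old replicate 3, 4 or 5 or rejuvenated old replicate 1, 3 or 4 (0.20 to 0.34, adjusted p = 0.0705 to 0.13) and with no filter, the same total, centring, a fit of 2 groups or a single prior variance. The interleukin 1 receptor gene Il1r1 was higher by 0.23 and the decoy kinase gene Irak3, which damps that receptor, by 0.31 (adjusted p = 0.000131 and 0.00167), while the TNF receptor gene Tnfrsf1b was lower by 0.27 ± 0.04. Ikbkg, the scaffold of the IKK complex that holds the kinases to IκB, fell from 3029 to 2596 normalized counts (log2 fold change -0.22 ± 0.03, adjusted p = 1.32e-06), and Map3k7, a kinase that activates the complex, from 2833 to 2572 (log2 fold change -0.14 ± 0.03, adjusted p = 0.000306). Chuk, a catalytic subunit, was lower by 0.15 ± 0.04 (adjusted p = 0.00125).

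Other IκB-like genes and negative regulators were higher in 8 of 17 and lower in 3 of 17 cases in rejuvenated old MSCs, with a median log2 fold change of 0.14. Of this list 64.7% were called, against 41.6% of all genes tested (21.0% as higher and 20.6% as lower). Pdlim2, a ubiquitin ligase that ends nuclear Rela activity, rose from 2986 to 4931 normalized counts (log2 fold change 0.72 ± 0.06, adjusted p = 7.03e-10), and Zc3h12a, an RNase that degrades cytokine mRNA, from 778.4 to 1006 (0.37 ± 0.06, adjusted p = 8.74e-05). Bcl3, an IκB-like coactivator, was higher by 0.32 ± 0.09 (adjusted p = 0.00634). Of 35 tested genes that NF-κB is widely known to raise, 18 were higher, 4 were lower and 13 were not called, with a median log2 fold change of 0.11. The called share of these targets was 62.9%. Ptx3, a secreted pattern recognition protein, rose from 4291 to 4486 in old to 12480 to 19230 in rejuvenated old libraries (log2 fold change 1.85 ± 0.08, adjusted p = 9.87e-14). Cfb, a complement factor, had means of 164.9 in old and 408.4 in rejuvenated old MSCs (1.32 ± 0.13, adjusted p = 5.52e-08). The adhesion molecule gene Vcam1 fell from 6408 to 5012 (-0.36 ± 0.06, adjusted p = 2.73e-05) and the death receptor gene Fas from 1353 to 1164 (-0.22 ± 0.05, adjusted p = 0.00164). The targets thus moved in both directions, and the lists describe these libraries only.

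Between young and old MSCs the same lists moved more widely, and so did the table as a whole. Of its 14353 genes with a test, 85.7% were called here, 41.6% as higher and 44.1% as lower, against 41.6% called after co-culture. Without regard to sign, their middle log2 change was 0.60 here and 0.15 after co-culture. The called share was 84% for adaptors and kinases, 85.7% for targets and 100% for each other list, so the counts below stand against a high background. Of the tested genes, 3 ligands were higher and 4 lower in young MSCs, 6 receptors higher and 9 lower, 14 adaptors and kinases higher and 7 lower, 1 IκB kinase gene higher and 4 lower, 8 other regulators higher and 9 lower, and 13 targets higher and 17 lower. Ikbkb, the kinase of the canonical route, had means of 1959 in young and 1695 in old MSCs (0.21 ± 0.03, adjusted p = 6.22e-07), whereas Chuk had 1558 and 3069 (-0.98 ± 0.04, adjusted p = 1.79e-17) and Ikbke 293.9 and 1378 (-2.23 ± 0.05, adjusted p = 1.36e-20). Bcl3 was higher in young MSCs by 1.61 ± 0.09 (adjusted p = 9.28e-14) and Irak3 lower, at -2.86 ± 0.07 (adjusted p = 3.32e-20). Il1rl1, the receptor for interleukin 33, and its ligand Il33 were both higher in young MSCs, at means of 5852 against 289.6 and 573.8 against 61.31 normalized counts. The ligand gene Tnf ran from 0 to 5.061 in young and from 46.24 to 64.54 in old libraries, and the receptor gene Tlr7 from 0 to 5.061 and from 32.32 to 51.2. The ligand gene Lta and the receptor gene Tlr1 went the other way, at means of 44.38 in young against 3.01 in old and 989.9 against 38.49. Among targets, C3 had 11450 normalized counts in young against 264.1 in old MSCs, and Mmp13 30.5 against 5999. Lcn2 had 37.99 to 46.9 in young and no more than 1.004 in old libraries. As for the members, the part of the macrophage markers' cells in these differences was not tested.

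**Figure D5:**
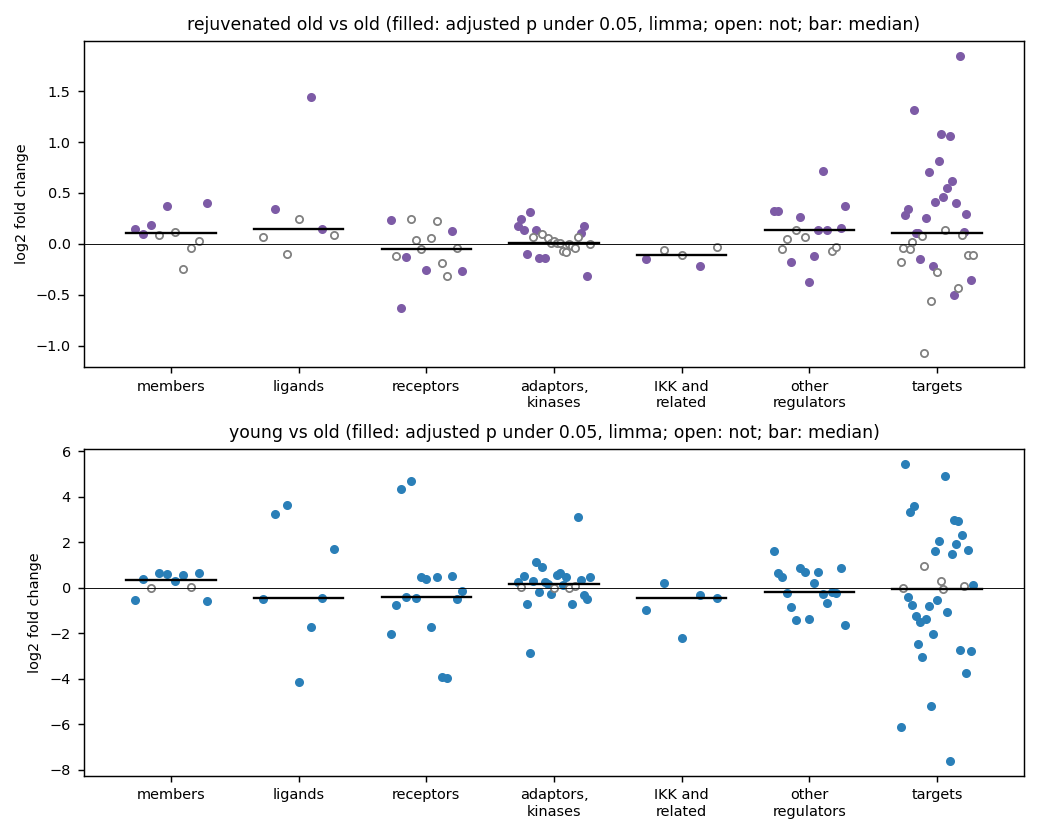
Points are log2 fold changes of the tested genes of each pathway list in rejuvenated old vs old (top) and young vs old MSCs (bottom), filled where the adjusted p was under 0.05 with limma, and bars are medians. In the top panel the member median is 0.11 and the IκB kinase median -0.11, and the bottom panel spans a wider scale, from -7.61 for Mmp13 to 5.44 for C3.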

How the data were processed

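RNA of 18 MSC samples was sequenced as stranded mRNA libraries at 100000 cells per well, from cells of passages 2 to 5. The authors aligned reads to mm10 with HISAT2, used StringTie and featureCounts for counting and DESeq2 for normalization, all on Galaxy, and their deposited values are a signal per gene, reads divided by 1 size factor per library, with replicates not pooled. Versions and the strand setting are not given in the sources used here. Every value was a whole multiple of 1 step per library, to within 5.55e-05 of a read, so reads could be recovered (22936251 to 29559194 per library).

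With limma 3.58.1 in R 4.3.3, log2(value + 1) was tested with 1 mean per group in all 18 libraries and a prior variance following the mean, on genes with a mean of at least 10. This scale understates changes of low genes. edgeR 4.0.16 (quasi-likelihood) and DESeq2 1.42.0 were run on recovered reads. Other alternatives were pseudocounts of 0.5 and 10, filters (none, mean of 50), scalings (total, 75th percentile, quantile), chromosome centring, 2-group fits, 1 prior variance, an adjusted p under 0.01, a replicate block and leaving out each library. The limma script was tested on simulated counts.

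The members and lists were chosen with earlier results of these data known. Beside the members, the text names genes of the pathway lists with non-overlapping libraries and the largest called changes, up to 2 in each direction for each list and comparison, and Commd1 as the nearest gene of a member. Chuk, Bcl3, Il33 and Ikbke in rejuvenated old vs old MSCs, Ltbr in young vs old MSCs, Sirt2, Psd, Ccer2 and AC114539.1 as overlapping genes, and Thy1, Eng and Cd34 among the markers were chosen after their values were seen. Positions are from RefSeq (GRCm38.p6, 25275 of 27179 genes matched), transcript lengths from GENCODE M21, and calculations used Python 3.11.15, pandas 2.3.3 and matplotlib 3.10.9. Libraries within a group all differed by more than sampling noise.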

Additional observations from a re-analysis of the deposited data

Results flagged for a closer look

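No member had a library far from the others of its group. Of 132 checks on members and named pathway genes, 13 found a library whose gap to the nearest other exceeded the 95% critical value of Dixon's test for 6 samples, and chance gives about 1 in 20. In rejuvenated old replicate 1, Lta stood at 9.268 normalized counts (others 0.9433 to 3.863) and Il33 at 124.6 (others 60.37 to 79.92), the library that also stood apart in Cd34. The call of Il33 between rejuvenated old and old MSCs was lost without it (log2 fold change 0.20, adjusted p = 0.13 with limma), as it was without each of 5 other libraries and in the other settings named in the report. In old replicate 4, Tnf stood at 64.54 (others 46.24 to 52.19) and Birc2 at 1031 (others 1113 to 1146). In young replicate 3, Tnfrsf1b stood at 1598 (others 1692 to 1745) and Tirap at 296.1 (others 340.1 to 356). Old replicate 2 had Ikbke at 1215 (others 1373 to 1460) and Cfb at 238.3 (others 130 to 168.8). Without it Ikbke was called lower after co-culture (-0.14, adjusted p = 0.04). Ikbkg stood at 2469 in rejuvenated old replicate 2 (others 2589 to 2645) and Ikbkb at 1545 in rejuvenated old replicate 4 (others 1627 to 1655). Cfb stood at 2717 in young replicate 4 (others 1690 to 2033), Vcam1 at 5951 in old replicate 6 (others 6424 to 6643) and C3 at 220.8 in old replicate 5 (others 265 to 285.4).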

How the results depend on the processing

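The counts of members called higher and lower stayed within 1.5 times the reported counts under all alternatives run, but which members were called changed. In young vs old MSCs 5 of 10 members changed their call, or turned sign while called, under some alternative. In rejuvenated old vs young MSCs 6 did so, and in rejuvenated old vs old MSCs 2. Among values called in the reported or the alternative setting, those that turned sign were Nfkbia on chromosome-centred values (0.46 in young vs old and -0.28 in rejuvenated old vs young MSCs), Map3k7 on the same scale (-0.06 in rejuvenated old vs young) and Ikbkg after scaling to the same total (-0.00 in rejuvenated old vs young). In rejuvenated old vs old MSCs, 254 of 259 alternative values of members kept their side of the threshold, 4 were weaker (all Nfkb1) and 1 stronger (Nfkbiz). Of the 254, Relb, not called, turned from 0.03 to -0.02 on chromosome-centred values. In young vs old MSCs Nfkbia, not called, turned from -0.01 to as much as 0.06 under the other scalings. In rejuvenated old vs old MSCs, 4 to 6 members were called higher when each library was left out in turn. With the replicate number as a block (replicate block), 5 members were higher and 0 lower in rejuvenated old vs old MSCs. Rel was not called in young vs old MSCs with this block (0.55, adjusted p = 0.0657 with limma). Same-numbered libraries did not deviate together (correlations from -0.152 to 0.074), so they share only a number. Rel, at 9 to 42 reads, is the member whose depth limits it most.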
